A study of Drosophila melanogaster with 6 samples.

Results

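Neuronal differentiation and synapse genes were followed in the leg disc of Drosophila, the larval sheet of cells from which the adult leg forms. A set of 42 gene names was given, covering neuronal RNA-binding proteins, transcription factors, synaptic vesicle and release proteins, transmitter enzymes, ion channels and the neuronal cytoskeleton, and 40 of them were found by symbol among the 17490 genes of the deposited table. VAChT and jeb2 matched no row and were not analysed. mRNA was measured in 3 replicates of GFP+ myoblasts, the muscle precursors of the leg, and in 3 replicates of the input, which holds the cells of the whole leg disc. Both groups came from R32D05-lexA>lexAopGFP animals at 0 h after pupae formation (APF), and both were dissociated with collagenase and papain. The R32D05 fragment drove GFP in the myoblasts, which were then sorted. The input still contains the myoblasts, so each comparison sets sorted cells against a mixture that includes them. The labels do not say whether the replicates came from separate animals or dissections, and p-values measure only the spread between these libraries.

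Neurons of the leg disc at this stage are mainly sensory, with those of the chordotonal organ and a few pioneer neurons among them, and the disc lies close to the larval nervous system. A differentiating neuron first expresses RNA-binding proteins of the ELAV family and transcription factors that fix its fate. It then builds an axon and makes the proteins that load transmitter into vesicles, dock the vesicles at the active zone and fuse them with the membrane when calcium enters. Fusion itself is carried out by SNARE proteins, which other cells also use for secretion. Myoblasts are not known for the neuronal forms, whereas proteins for general membrane traffic occur in most cells.

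RPKM values were used, that is, reads scaled to gene length and to a total. When factors were computed from the median of ratios over the 6955 genes above 0 in every library, they came out at 1 for all 6 libraries, so the deposited values already carry that scaling. Their sums therefore differed, from 481720 in input replicate 2 to 963726 in input replicate 1. The reads recovered on annotated genes added up to between 45603692 and 77704176 a library. Pearson correlation of log2 values was 0.980 to 0.986 among myoblasts and 0.875 to 0.954 among inputs, with input replicate 1 in the 2 lower pairs, across genes that are not independent. All 8 myoblast markers examined, twi and htl among them, were called higher in the sorted cells. Of 17 disc epithelium genes tested, 12 were called lower and 1 higher. Of 10 hemocyte genes, 3 were lower and 2 higher, and of 8 tracheal genes, 5 were lower and 1 higher. Over all tested genes 14.8% were called lower and 5.52% higher. In these lists 9 epithelium, 3 hemocyte and 3 tracheal genes reached the level for testing, given below, only through the inputs and had to differ. All 3 hemocyte genes called lower were among them.

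Most neuronal genes were near 0 in myoblasts and clearly present in the input. In 31 of the 40 genes every myoblast library was below 1 RPKM. In 29 of the 40 all myoblast libraries lay below all input libraries, and in none did they lie above. Genes with at least 1 RPKM in at least 3 libraries were tested with limma on log2(RPKM + 1) and called at an adjusted p under 0.05 (Benjamini-Hochberg) and a fold change over 1.5. Of the 27 neuronal genes tested, 20 were called lower in myoblasts and 0 higher, also 0 without adjustment of p. Over all 7533 genes tested, 14.8% were called lower and 5.52% higher (20.4% in either direction), and all myoblast libraries lay below all inputs in 21.5%. The median log2 difference was -2.30 over the 27 neuronal genes and 0.01 over all tested genes. These shares cannot be read as support, because 18 of the 27 genes reached the level for testing only through the inputs and had to differ. All 18 were called. The other 9 also reached 1 RPKM in myoblasts, and of these elav and Cadps were called lower and 7 were not called. Without input replicate 1, which stood apart from the other inputs, 23 of the 27 neuronal genes and 1471 of all genes were called lower. With no filter on low values the calls of elav, onecut, Syt1, Syt7, Syngr, Rim and Cadps were lost, and with quantile normalization those of Nrx-1, Syt1, Syt7, Syngr, Rim and Gad1. In bulk samples, fewer cells of a type and less RNA per cell cannot be told apart.

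**Figure D1:**
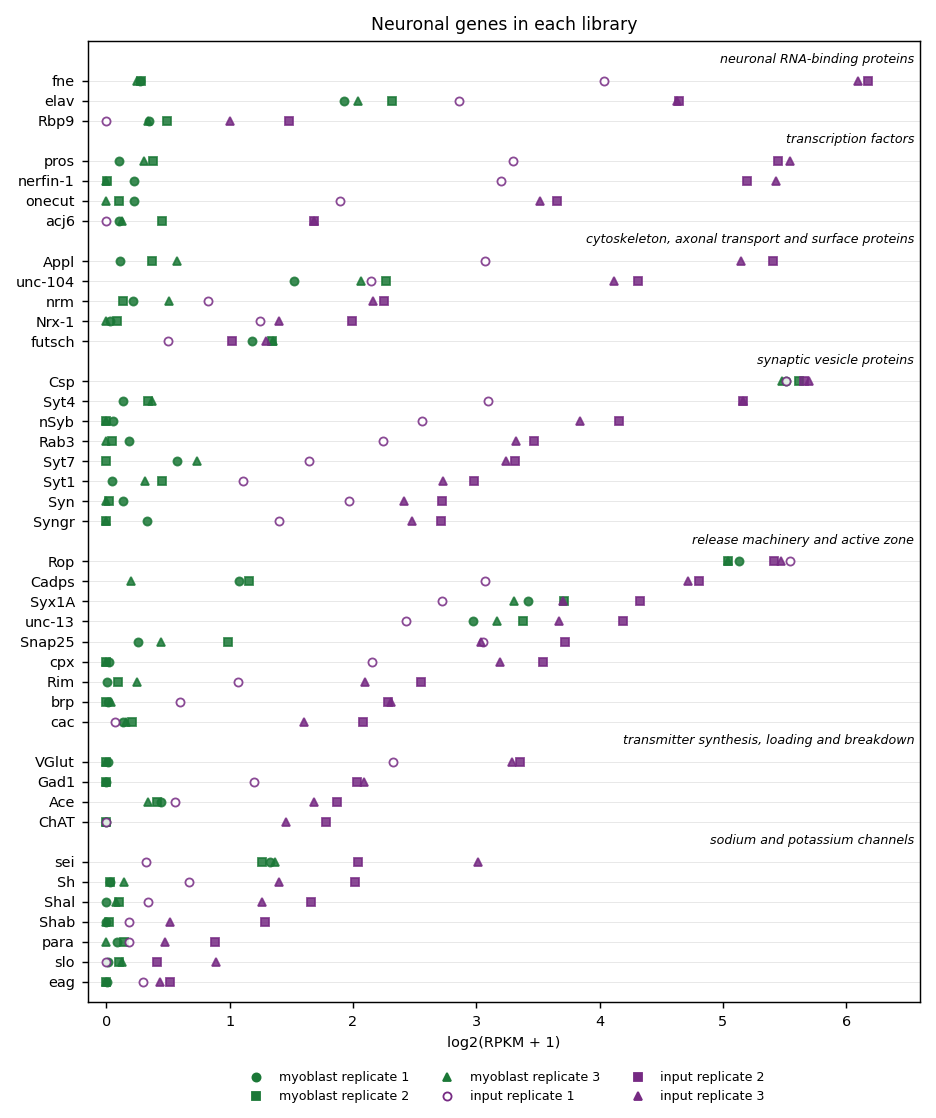
Level of the 40 neuronal genes in each library as log2(RPKM + 1), grouped by role, with myoblasts in green and inputs in purple (open circle, input replicate 1). Most genes sit near 0 in the 3 myoblast libraries, Csp and Rop sit at a like level in all 6, and input replicate 1 is the lowest input for 38 of the 40 genes.

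Among the RNA-binding proteins, fne fell most and elav kept a low level in myoblasts. Both genes belong to the ELAV family, whose proteins bind U-rich RNA. The RPKM of fne (FBgn0086675, chromosome X of dm6, 12917477 to 12950417) was 0.206, 0.214 and 0.187 in myoblast replicates 1, 2 and 3, and 15.4, 71.3 and 67.3 in input replicates 1, 2 and 3. The lowest input was thus far above the highest myoblast library. Its log2 difference was -5.17 (standard error 0.545, adjusted p = 0.000343 from limma), the most negative of all tested neuronal genes on the log2(RPKM + 1) scale. That rank depends on the pseudocount. With a pseudocount of 0.1, nerfin-1 was at -7.37 and fne at -7.12. Some genes also had a lower share of the input mean in myoblasts, such as VGlut (0.0350%) and cpx (0.0656%), against 0.394% for fne. The RPKM of elav (FBgn0260400, chromosome X, 509235 to 523226) was 2.80, 3.99 and 3.11 in the myoblast libraries and 6.27, 24.0 and 23.8 in the inputs. The groups did not overlap, but the gap to input replicate 1 was small. For elav the log2 difference was -1.95 (standard error 0.479, adjusted p = 0.0225 from limma). That call was lost when any library other than input replicate 1 was left out, with adjusted p between 0.0622 and 0.0925 in those 5 fits, and when libraries were rescaled to an equal sum of RPKM (adjusted p = 0.0911).

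The proportion of elav to fne therefore differed between the groups. Both values are per length, and their ratio was 13.6, 18.6 and 16.7 in myoblast replicates 1, 2 and 3 against 0.408, 0.337 and 0.353 in the inputs. In all 3 myoblast libraries elav exceeded fne, and in all 3 inputs fne exceeded elav. Myoblast elav rested on 2157 to 3608 reads and myoblast fne on about 116 to 173 reads. Mean myoblast RPKM was 18.3% of the input mean for elav and 0.394% for fne. In the annotation 2994 bases of the exons of elav are shared with lncRNA:enrr on the same strand and 673 with arg on the other, and the part of these in the elav reads was not tested. Rbp9, the third family member, was not tested for want of level. It was listed at 0 in input replicate 1 and at 1.79 and 1.0 RPKM in the others, against 0.267 to 0.403 in myoblasts, so its groups overlapped.

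Transcription factors of neuronal differentiation were all but absent from myoblasts. For nerfin-1 (FBgn0028999, chromosome 3L, 909112 to 912319), a zinc finger factor that keeps young neurons from losing their identity, RPKM was 0.167, 0.00370 and 0 in myoblasts and 8.17, 35.7 and 42.0 in input replicates 1, 2 and 3. For pros (FBgn0004595, chromosome 3R, 11328480 to 11407627), a homeodomain factor that ends division of neural precursors, it was 0.0716, 0.299 and 0.236 against 8.82, 42.5 and 45.7. Neither gene came near the input level in any sorted library. Their log2 differences were -4.53 (standard error 0.558, adjusted p = 0.000798 from limma) and -4.50 (standard error 0.573, adjusted p = 0.000944 from limma). The homeodomain gene onecut had 0.169, 0.0739 and 0 RPKM in myoblasts against 2.73, 11.6 and 10.4, with a log2 difference of -2.91 (adjusted p = 0.00365 from limma). The POU domain gene acj6, which sets the identity of particular neurons, was listed at 0 in input replicate 1 and at 2.22 and 2.21 RPKM in the other inputs, and reached 0.372 in myoblast replicate 2. It was not tested, and its groups overlapped because of input replicate 1.

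The genes for the axon and the neuronal surface did not move as a body. Appl, the fly homolog of the amyloid precursor protein, had 0.0800, 0.295 and 0.491 RPKM in myoblasts and 7.41, 41.3 and 34.4 in the inputs (log2 difference -4.19, standard error 0.581, adjusted p = 0.00149 from limma). Its groups were far apart. The synaptic adhesion protein gene Nrx-1 had at most 0.0610 RPKM in myoblasts and 1.38, 2.98 and 1.64 in the inputs (log2 difference -1.51, adjusted p = 0.0132 from limma). This call was lost without any one myoblast library, at adjusted p of 0.0635 to 0.0724, and with quantile normalization (adjusted p = 0.455). For nrm, an adhesion protein of the immunoglobulin superfamily, the inputs had 0.776, 3.76 and 3.47 RPKM and the myoblasts at most 0.419. It missed the level for testing through input replicate 1.

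In the same class, unc-104 and futsch were measurable in sorted myoblasts. The kinesin motor gene unc-104, whose product carries vesicle precursors along axons, had 1.87, 3.81 and 3.20 RPKM there and 3.43, 18.8 and 16.3 in input replicates 1, 2 and 3. Input replicate 1 lay within the range of the myoblasts, and the log2 difference of -1.57 was not called (95% interval -2.86 to -0.27, adjusted p = 0.0937 from limma). Without input replicate 1 the gene was called lower (log2 difference -2.26, adjusted p = 0.000398). With libraries of the same number as a block, its adjusted p was 0.0160. The microtubule-associated protein gene futsch, a common marker of sensory neurons, had 1.27, 1.54 and 1.55 RPKM in myoblasts and 0.416, 1.03 and 1.45 in the inputs. These groups overlapped, and the log2 difference was 0.35 (95% interval -0.39 to 1.10, adjusted p = 0.528 from limma). Under quantile normalization, which moved the median difference of all genes to 0.16, futsch was called higher (log2 difference 1.29, adjusted p = 0.0115).

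Of 8 synaptic vesicle genes tested, 7 were called lower, against 14.8% of all tested genes. All 7 reached the level for testing only through the inputs and had to differ, so the count is no support. The vesicle SNARE gene nSyb (FBgn0013342, chromosome 3L, 1630348 to 1637752) had 0.0379, 0 and 0 RPKM in myoblasts and 4.88, 16.8 and 13.3 in the inputs, with a log2 difference of -3.50 (standard error 0.431, adjusted p = 0.000798 from limma). It rested on 13 reads in myoblast replicate 1 and on 824 to 4134 reads in the inputs. For Syt1, the calcium sensor of fast release, myoblasts had 0.0302, 0.365 and 0.243 RPKM and inputs 1.16, 6.89 and 5.62 (log2 difference -2.0, standard error 0.502, adjusted p = 0.0245 from limma). Every input exceeded every myoblast library, but the call was lost without any single library other than input replicate 1, at adjusted p from 0.0601 to 0.0999, and when libraries were rescaled to an equal sum of RPKM (adjusted p = 0.0571).

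The other synaptotagmins differed in their level. Syt4, known for vesicles that act on the postsynaptic side, was the most abundant of the 3 in every input, with 7.55, 34.8 and 34.8 RPKM against 0.0995, 0.264 and 0.294 in myoblasts (log2 difference -4.19, adjusted p = 0.00104 from limma). Syt7 had 2.12, 8.93 and 8.45 RPKM in the inputs, and 0.488, 0 and 0.663 in myoblasts (log2 difference -2.30, adjusted p = 0.0125 from limma). Its call was lost without myoblast replicate 2 (adjusted p = 0.0605) or input replicate 3 (adjusted p = 0.0528).

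Rab3, the GTPase of synaptic vesicles, had 3.72, 10.1 and 9.01 RPKM in the inputs and at most 0.136 in myoblasts (log2 difference -2.93, adjusted p = 0.00104 from limma). Syn, which tethers vesicles in their reserve pool, had 2.91, 5.59 and 4.33 against at most 0.10 (log2 difference -2.31, adjusted p = 0.00132), and Syngr, a membrane protein of the vesicle, 1.64, 5.57 and 4.58 against at most 0.254 (log2 difference -2.09, adjusted p = 0.00785). For Syn, 249 bases of exon are shared with Timp on the opposite strand, whose RPKM was higher in myoblasts than in the inputs.

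Csp was the exception. Its product is a chaperone that keeps SNARE proteins folded on vesicles, and its RPKM was 44.5, 48.1 and 43.7 in myoblasts and 44.6, 49.5 and 50.8 in the inputs. The groups overlapped, with input replicate 1 among the myoblasts. The log2 difference of -0.09 had a 95% interval of -0.47 to 0.30 (adjusted p = 0.794 from limma), which does not reach the fold change of 1.5 in either direction.

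Of the 7 release machinery genes tested, 4 were called lower and 3 were not called, against 14.8% called lower of all tested genes. Of the 4, cpx, Snap25 and Rim reached the level for testing only through the inputs and had to differ. Only Cadps also reached 1 RPKM in myoblasts. Among those called, cpx, whose product clamps the SNARE complex until calcium arrives, had 0.0146, 0 and 0 RPKM in myoblasts and 3.45, 10.6 and 8.15 in the inputs (log2 difference -2.96, standard error 0.396, adjusted p = 0.00122 from limma). Snap25, a SNARE of the plasma membrane, had 0.198, 0.977 and 0.359 against 7.33, 12.2 and 7.22 (log2 difference -2.71, adjusted p = 0.000804). Both sets of inputs stood well clear of the myoblasts. Cadps, needed for release from dense core vesicles, had 1.10, 1.22 and 0.150 RPKM in myoblasts against 7.38, 26.9 and 25.3 (log2 difference -3.39, adjusted p = 0.00229). The active zone protein gene Rim had at most 0.192 RPKM in myoblasts and 1.09, 4.85 and 3.29 in the inputs (log2 difference -1.79, adjusted p = 0.0188 from limma). Its call was lost without any one myoblast library or input replicate 3, at adjusted p from 0.0642 to 0.0844, and with quantile normalization (adjusted p = 0.287).

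The scaffold gene brp, which gives the active zone its shape, had 0.0107, 0 and 0.0254 RPKM in myoblasts and 0.515, 3.86 and 3.94 in the inputs. Its groups did not overlap, but input replicate 1 kept it under the level for testing. The calcium channel gene cac had 0.0506 RPKM in input replicate 1, below all 3 myoblast libraries (0.0996 to 0.155), and 3.22 and 2.03 in the other inputs. It was likewise not tested, and its groups overlapped.

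The genes not called were Rop, Syx1A and unc-13, which act on the plasma membrane side of fusion. Rop, which binds syntaxin and guides SNARE assembly, had 34.0, 31.9 and 31.9 RPKM in myoblasts and 45.5, 41.6 and 43.4 in the inputs. Every input was above every myoblast library, for which a two-sided exact permutation test gives p = 0.1, its lowest possible value with 3 libraries in each group. The log2 difference was small, -0.41 (95% interval -0.79 to -0.02), and was not called (adjusted p = 0.142 from limma). The syntaxin gene Syx1A had 9.69, 12.1 and 8.91 RPKM in myoblasts against 5.6, 19.0 and 12.0, a log2 difference of -0.11 (95% interval -1.02 to 0.81, adjusted p = 0.897 from limma). The priming factor gene unc-13 had 6.83, 9.43 and 8.0 against 4.39, 17.3 and 11.7 (log2 difference -0.26, 95% interval -1.26 to 0.74, adjusted p = 0.758 from limma). For both genes input replicate 1 lay below and input replicate 2 above all myoblasts. Without input replicate 1, unc-13 was called lower (log2 difference -0.76, adjusted p = 0.0399), and without input replicate 2 the differences of Syx1A and unc-13 were above 0, at 0.27 and 0.12. Exons of Syx1A share 447 bases with eIF4EHP on the same strand, and exons of unc-13 lie opposite asRNA:CR43425 over 3528 bases and asRNA:CR44029 over 705. The first was listed at 0 in all 6 libraries, and the second had 0.601 to 5.25 RPKM.

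**Figure D2:**
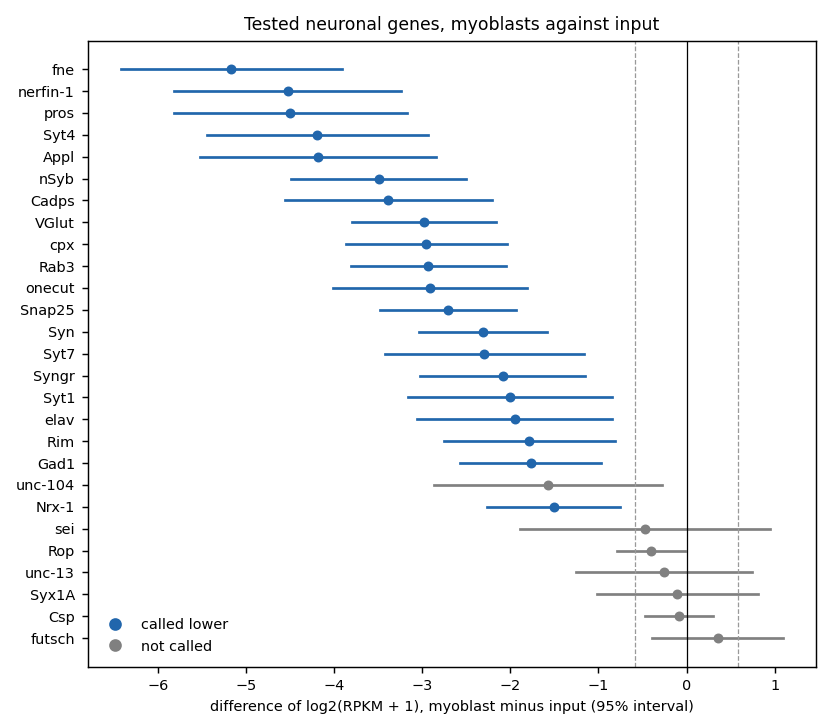
Fitted difference in log2(RPKM + 1), myoblast minus input, for the 27 tested neuronal genes with its 95% interval, in order of size. Blue marks the 20 genes called lower and grey the 7 not called, and the dashed lines stand at a fold change of 1.5. fne is the most negative at -5.17, and the interval of Csp alone lies wholly between the dashed lines.

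Genes of transmitter use were close to 0 or at 0 in sorted myoblasts. VGlut (FBgn0031424, chromosome 2L, 2400295 to 2410662) loads vesicles with glutamate, the transmitter of fly motor neurons. It had 0.00770, 0 and 0 RPKM in myoblasts, from about 4 reads in all, and 4.01, 9.22 and 8.77 in the inputs (log2 difference -2.99, standard error 0.354, adjusted p = 0.000649 from limma). Gad1, the enzyme that makes GABA, was listed at 0 in all 3 myoblast libraries and at 1.29, 3.09 and 3.25 RPKM in the inputs. It was called lower (adjusted p = 0.00839 from limma), and no fold is given against a group at 0.

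ChAT, which makes acetylcholine, the main transmitter of fly sensory neurons, was listed at 0 in every myoblast library and in input replicate 1, and at 2.44 and 1.75 RPKM in input replicates 2 and 3. Its exons share 606 bases with VAChT on the same strand. Ace, which breaks acetylcholine down, had 0.268 to 0.362 RPKM in myoblasts and 0.473, 2.66 and 2.22 in the inputs. Neither was tested, since both stayed under 1 RPKM in input replicate 1.

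Of the 7 sodium and potassium channel genes, only sei reached the level for testing. This potassium channel gene of the erg type had 1.51, 1.39 and 1.58 RPKM in myoblasts and 0.250, 3.10 and 7.05 in input replicates 1, 2 and 3. The inputs lay on both sides of the myoblasts (log2 difference -0.47, 95% interval -1.89 to 0.95, adjusted p = 0.676 from limma). Without input replicate 1 it was called lower (log2 difference -1.21, adjusted p = 0.0202), while without input replicate 3 the difference was 0.14. Exons of sei share 359 bases with gammaSnap1 on the opposite strand, which had 4.39 to 11.2 RPKM.

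The sodium channel gene para, which carries the action potential, had at most 0.107 RPKM in myoblasts and 0.136, 0.846 and 0.395 in the inputs. Among the potassium channel genes, Sh had 0.589, 3.05 and 1.64 RPKM in the inputs, Shal 0.267, 2.17 and 1.40, and Shab 0.138, 1.44 and 0.433, with at most 0.104 in any myoblast library. eag and slo stayed under 1 RPKM in all 6 libraries. In para, Sh, Shab, Shal and eag every input lay above every myoblast library, and in slo the groups overlapped, as it was listed at 0 in input replicate 1.

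Input replicate 1 held less RNA of nearly every neuronal gene than the other inputs, and it was the lowest input for 38 of the 40. Among the 36 genes with a mean of at least 1 RPKM in input replicates 2 and 3, the level in input replicate 1 was under 50% of that mean in 31 (86.1%), with a median of 24.9%. Over all tested genes with such a mean, 19.9% were under 50%, and the median was 90.3%. These shares are of unlike sets. The 36 include 9 untested genes, all under 1 RPKM in input replicate 1, and the share over all genes holds tested genes only. On the log2(RPKM + 1) scale, input replicate 1 differed from the mean of the other inputs by a median of -1.45 over the 27 tested neuronal genes and of -0.13 over all tested genes. Among these 27, 19 (70.4%) were lower by more than 1 on this scale, against 15.6% of all tested genes. For input replicates 2 and 3 the medians over the neuronal genes were 0.67 and 0.40.

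The shortfall was uneven among the neuronal genes. The RNA-binding proteins and transcription factors above 0 in input replicate 1 stood at 19.98% (pros) to 26.3% (elav) of the mean of the other inputs, and Appl at 19.6%. Rbp9 and acj6 were listed at 0 in input replicate 1. Vesicle and release genes ranged more widely. At the low end were cac at 1.92%, brp at 13.2%, Syt1 at 18.5%, Syt4 at 21.7%, Syt7 at 24.4%, Rim at 26.8% and Cadps at 28.3%. Above these stood Syngr at 32.3%, nSyb at 32.4%, cpx at 36.7%, Rab3 at 39.0%, Syn at 58.8% and Snap25 at 75.6%. Of other roles, VGlut stood at 44.6% and Nrx-1 at 59.6%. Genes that myoblasts also express ranged as widely, with Csp at 89.1% and Rop at 107%, but sei at 4.93%, unc-104 at 19.5%, unc-13 at 30.3%, futsch at 33.5% and Syx1A at 36.1%. With 1 library these percentages are a description, with no replicate check.

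**Figure D3:**
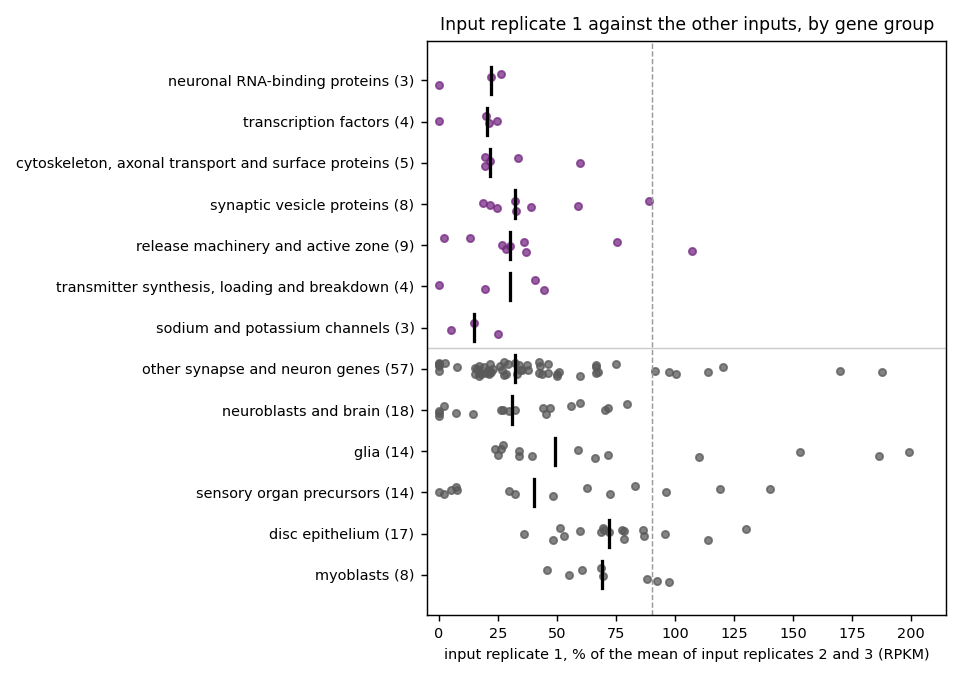
RPKM in input replicate 1 as a percentage of the mean of input replicates 2 and 3, for genes with a mean of at least 1 RPKM there (number of genes in brackets), by role of the neuronal genes (purple) and in other gene lists (grey). Black bars are medians, and the dashed line is the median of all tested genes, 90.3%. Most of the gene groups also include untested genes. The neuronal roles have medians of 14.96% to 32.4%, while the medians of disc epithelium and myoblast genes are 71.9% and 69.0%.

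The low level in input replicate 1 also bore on which genes could be tested. All 13 untested neuronal genes were under 1 RPKM in that library, and 9 of them reached at least 1 RPKM in both other inputs. With a filter of 1 RPKM in at least 2 libraries, chosen after seeing the data, 36 of the 40 genes were tested. Of these, 20 were called lower, against 1151 of all 8214 genes tested. When input replicate 1 was also left out, 32 of the 36 and 1862 of the 8214 were called lower. The 9 added genes were all among the 32. For brp the log2 difference was then -2.28 (adjusted p = 0.000240 from limma), against -1.71 (adjusted p = 0.0521) with all 6 libraries. Under that filter every added gene had to be low in myoblasts, so the count is no support.

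Genes of other cell types were compared across the inputs in the same way, and their part in the difference between inputs was not tested. Proneural genes differed in this respect. In input replicates 1, 2 and 3, ac had 24.0, 15.9 and 18.2 RPKM and sc 24.3, 29.7 and 20.8, whereas ato, the proneural gene of the chordotonal organ, had 0.118, 1.60 and 2.97. The sensory precursor gene phyl had 0.603, 10.1 and 5.90 RPKM, so that ato and phyl were short in input replicate 1 and ac and sc were not. The neuroblast factor gene wor had 0.803, 7.74 and 14.4 RPKM, dpn was listed at 0 and had 2.41 and 4.25, and ase had 3.25, 9.55 and 10.5. The brain and eye factor genes toy and ey had 2.18, 13.7 and 17.0 RPKM and 0, 3.97 and 3.20. Others of the neuroblast and brain list were less short in input replicate 1. There pnt stood at 79.6%, erm at 71.4%, grh at 70.5%, nub at 59.9% and nab at 56.0% of the mean of the other inputs. Over the list of neuroblast and brain genes, 13 of 18 were under 50% in input replicate 1 (median 30.9%). Other synapse and neuron genes had 42 of 57 (median 32.2%). Sensory organ precursor genes had 8 of 14 (median 40.3%) and sensory neuron genes 5 of 10 (median 38.1%). Glial genes had 7 of 14 (median 49.3%) and hemocyte genes 7 of 11 (median 48.9%). Tracheal genes had 0 of 7 (median 77.0%), disc epithelium genes 2 of 17 (median 71.9%) and myoblast genes 1 of 8 (median 69.0%). Some hemocyte genes went the other way, among them the surface protein genes He, with 38.8, 2.02 and 3.73 RPKM in input replicates 1, 2 and 3, eater, with 8.63, 2.50 and 2.11, and NimC1, with 2.78, 0.658 and 1.23. Summed over each list, input replicates 1, 2 and 3 held 102, 244 and 229 RPKM of neuroblast and brain genes. For sensory organ precursor genes the sums were 109, 187 and 180. Both lists hold wor, dpn, ase, mira and insc, so their counts, medians and sums are not independent. In input replicate 1 these shared genes stood at 0% (dpn) to 32.3% (ase) of the mean of the other inputs. Of the 25 sensory neuron genes, the mechanosensory channel genes nompC and iav had at most 0.169 and 0.353 RPKM in any library, and nan and nompA were listed at 0 throughout. Others were present, with Piezo at 1.64, 3.31 and 2.1 RPKM in the inputs, pain at 11.8, 19.3 and 15 and eys at 0.0569, 1.93 and 1.92.

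A wider list of 75 other synapse and neuron genes held 37 that were tested. Of these, 14 were called lower, 3 higher and 20 were not called, with a median log2 difference of -0.56, and 12 of the 14 had passed only through the inputs. Among the genes that fell were the nicotinic receptor subunits nAChRalpha1, nAChRalpha6 and nAChRalpha7, at log2 differences of -1.61, -2.10 and -2.34 (all adjusted p at most 0.0170 from limma). The GABA vesicle transporter gene VGAT was also called lower (adjusted p = 0.00484 from limma). It was listed at 0 in every myoblast library and had 2.22, 10.7 and 5.79 RPKM in the inputs. The others called lower were lap, SK, qvr, Nrg, scrt, dati, bru3, beat-Ia, amon and 7B2. The most negative log2 difference was that of 7B2, a cofactor in the making of neuropeptides. With myoblasts at 0, its size follows from the input level and the pseudocount. 7B2 was listed at 0 in every myoblast library and had 31.8, 28.5 and 36.7 RPKM in the inputs (adjusted p = 1.46e-05 from limma). It was not short in input replicate 1.

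The 3 genes called higher in myoblasts were Nlg1, CadN and nemy. Nlg1, a neuroligin that sits on the postsynaptic side in muscle, had 7.50, 10.8 and 9.20 RPKM in myoblasts and 1.07, 0.521 and 0.725 in the inputs (log2 difference 2.52, standard error 0.282, adjusted p = 0.000472 from limma). CadN, a cadherin of axons that mesodermal cells also use, had a log2 difference of 1.55 (adjusted p = 0.0218), and nemy, a cytochrome of the b family, of 1.78 (adjusted p = 0.000252). Of the membrane traffic genes in this list, the clathrin adaptor gene lap was called lower, with 7.55, 8.66 and 6.32 RPKM in myoblasts and 15.9, 21.7 and 20.7 in the inputs (log2 difference -1.26, adjusted p = 0.00651 from limma), while shi and comt were not called. The dynamin gene shi had 19.6 to 22.8 RPKM in myoblasts and 15.5 to 24.0 in the inputs, and the NSF gene comt 7.43 to 7.64 against 5.01 to 7.76. Among the remaining lists, 7 of 8 tested sensory organ precursor genes, 8 of 11 neuroblast and brain genes, 6 of 11 glial genes and 1 of 7 sensory neuron genes were called lower in myoblasts, against 14.8% of all tested genes. Of the genes tested, 5, 5, 5 and 1 in these lists had passed only through the inputs and had to differ. The genes ase and mira count in both the precursor and the neuroblast list. The genes pnt of the neuroblast list and wrapper of the glial list were called higher.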

How the data were processed

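mRNA libraries of 3 GFP+ myoblast and 3 input replicates were analysed. The authors trimmed reads with Cutadapt, aligned them with HISAT2 2.1.0 to dm6, counted them with HTSeq 0.11.2 and deposited RPKM values, for which the methods name Cufflinks. The submitters' processing notes also name DESeq2 1.22.2. The deposited RPKM values carry median-of-ratios scaling. How strand was counted is not given in the sources used here. Columns of the authors' comparison were not used.

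Reads were recovered as whole multiples of a step in RPKM times exon length (Ensembl release 115, 17216 of 17490 genes matched by identifier, para placed by symbol). Between 97.4% and 98.6% of genes under 100 reads were whole within 0.05 reads. Of 209 values of neuronal genes with reads, 177 were. Those of fne and VGlut were not, so their reads are approximate. Reads are not independent molecules, so low values are less precise than their reads. Genes with at least 1 RPKM in at least 3 libraries were fitted with limma 3.58.1 (R 4.3.3) on log2(RPKM + 1) with an empirical Bayes trend. The pseudocount of 1 understates changes of low genes. Adjusted p-values are from limma with Benjamini-Hochberg adjustment over 7533 genes. The fit was tested on simulated data.

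Any member could be named, with values in every library for called members, for elav, nSyb, Syt1, brp and para, and for those whose highest input was over 3 times the lowest and at least 1 RPKM. Of other genes, only those of fixed lists or overlapping a member were named. The members and lists were chosen with earlier results of these data known. No protein or promoter sequence was used here.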

Additional observations from a re-analysis of the deposited data

How the results depend on the processing

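The count of 20 neuronal genes called lower stayed between 15 and 23 when single libraries were left out. Without input replicate 1 and with the wider filter, 32 of 36 were called lower. With no filter on low values, 13 of 40 neuronal genes were called lower, against 675 of all 17490 genes. Where the mean level had to exceed 5 RPKM, 8 of 13 were, against 607 of all 6188 genes tested. In 11 of the 20 genes the call held in each of the 18 alternatives that tested them. A pseudocount of 0.1, no empirical Bayes trend and median-of-ratios scaling changed no call of a neuronal gene, and the last changed no value. Quantile normalization called 1 neuronal gene higher, futsch, and turned sei to 0.29. With single libraries left out, log2 differences ranged from -1.21 (without input replicate 1) to 0.14 (without input replicate 3) for sei, and, without input replicates 1 and 2 in turn, from -0.54 to 0.27 for Syx1A and from -0.76 to 0.12 for unc-13. The cause was not tested. Over all genes, 416 were called higher and 1118 lower (27.1% of calls higher). Calls were 219 and 675 with no filter, 607 lower with a mean RPKM over 5, 180 higher (16.3% of calls) with the same sum of RPKM, 809 higher (50.4%) with quantile normalization and 763 higher with no adjustment of p. Leaving out single libraries gave 139 to 871 higher and 759 to 1471 lower, the highest without input replicate 1. Without that library and with the wider filter, 840 were higher and 1862 lower. The median log2 difference of input replicate 1 over the neuronal genes was -2.20 with the same sum of RPKM, where that of all genes was -0.89.

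With single libraries left out, other synapse genes gave 7 to 18 calls lower, sensory neuron genes 0 to 4, and hemocyte genes 1 to 3. Calls higher were 0 to 1 for neuroblast genes, 1 to 2 for glial genes and 0 to 2 for tracheal genes. Libraries share only a number. The deviations of same-numbered libraries correlated at 0.34, 0.26 and 0.01, and myoblast replicate 3 correlated best with input replicate 2. With a replicate block, 491 genes were called higher and 1177 lower, and 21 neuronal genes lower, unc-104 being added. Several myoblast values near 0 rest on few reads, such as 13 for nSyb and about 4 for VGlut in myoblast replicate 1.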
